A study of Mus musculus with 4 samples.

Results

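Gata3, the gene of the transcription factor that directs T helper 2 (Th2) differentiation, was examined together with 5 cytokine genes, Il4, Il5, Il13, Il9 and Il24, and with Il1rl1, which encodes ST2, the receptor chain for interleukin 33. These 7 genes were taken by symbol from a deposited table of 17921 genes, and all 7 were found and tested. RNA sequencing had been carried out on Th17 cells, a CD4+ subset named for interleukin 17, from 2 mice lacking PRAK (knockout, KO) and 2 wild-type (WT) mice, 1 library per mouse. The gene of PRAK, a kinase downstream of p38, is Mapkapk5. In both genotypes the starting cells were naive CD4+ T cells, grown under Th17-polarising conditions for 72 h in vitro, and all cells of the culture were taken on day 3 without a sort named in the labels. The strain, age and sex of the mice, the way PRAK was removed and the cytokines and blocking antibodies of the culture are not stated in the labels. The libraries are called KO 1, KO 2, WT 1 and WT 2 after the mouse numbers.

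In Th2 cells, interleukin 4 signals through STAT6 to raise GATA3, and GATA3 acts on a cluster that holds Il4, Il13 and Il5, with Rad50 between Il13 and Il5, whose introns carry a locus control region for the cytokines. Interleukin 5 supports eosinophils, and interleukin 13 acts on epithelium and smooth muscle. Interleukin 9, a mast cell and mucosal growth factor, is made by Th9 cells and innate lymphoid cells, and interleukin 24 is a cytokine of the interleukin 10 family that was first found in mouse as a gene induced by interleukin 4 in Th2 cells and is also made by Th17 cells. Gata3, Il4, Il5 and Il13 ordinarily mark a fate other than Th17.

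Of the 7 genes, 1 rose in KO cells (Il13), 1 fell (Il24) and 5 did not pass the test (edgeR quasi-likelihood test, Benjamini-Hochberg adjusted p under 0.05 over 12680 genes). Over all genes tested, 13.4% passed in either direction, 5.14% as higher in KO and 8.23% as lower. The libraries of the genotypes did not overlap for 4 of the 7 genes, 3 of them higher in KO, where 63.0% of all genes tested did not overlap (31.7% with both KO libraries above, 31.4% with both below). On the log2 scale the median fold change (KO over WT) came to 1.06 for the 7 genes, against 0.02 over all genes tested. With a library left out, the lone library of its genotype is assumed to vary like the pair of the other. The number of genes called then moved over the whole table as well as among the 7, so it says nothing particular about the 7.

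**Figure D1:**
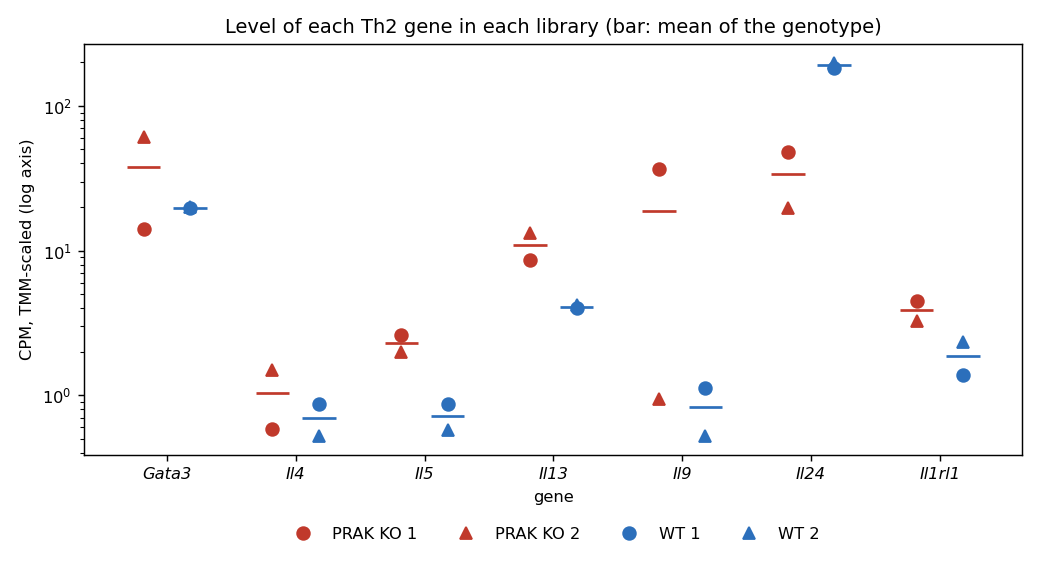
Level of the 7 Th2 genes in each library, in CPM with TMM scaling (log axis), with KO libraries in red and WT libraries in blue, circles for mouse 1, triangles for mouse 2 and a bar at the mean of each genotype. Il24 lies lower and Il13, Il5 and Il1rl1 lie higher in both KO libraries. Gata3, Il4, Il13, Il9 and Il24 differ more between KO 1 and KO 2 than between the WT libraries, most of all Il9 and Gata3.

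The upstream sequences below are shown because GATA3 binds DNA at the core letters GATA. They hold the 250 bases before an annotated start, 5′ to 3′ on the strand of the gene, from RefSeq on GRCm38.p6, the build that the submitters' processing notes name. Capitals mark 4 motifs on either strand, with matches on the opposite strand read as the reverse complement. The motifs are AGATAA, the form of it that ends in G instead (AGATAG), the form that starts with a T (TGATAA) and the form with both of these changes (TGATAG). They share the core, so no 2 of them match at 1 place on 1 strand.
Il13, chr11:53634703-53634952, minus strand: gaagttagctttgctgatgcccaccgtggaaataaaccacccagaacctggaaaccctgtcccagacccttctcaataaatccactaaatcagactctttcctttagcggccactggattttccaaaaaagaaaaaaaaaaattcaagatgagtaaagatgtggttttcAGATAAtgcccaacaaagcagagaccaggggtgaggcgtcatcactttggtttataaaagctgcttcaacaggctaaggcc
Il5, chr11:53720544-53720793, plus strand: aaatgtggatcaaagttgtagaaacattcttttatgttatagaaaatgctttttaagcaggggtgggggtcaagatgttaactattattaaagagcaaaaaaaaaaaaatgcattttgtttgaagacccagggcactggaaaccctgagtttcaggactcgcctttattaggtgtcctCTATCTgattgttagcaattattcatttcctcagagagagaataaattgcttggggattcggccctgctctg
Il4, chr11:53618666-53618915, minus strand: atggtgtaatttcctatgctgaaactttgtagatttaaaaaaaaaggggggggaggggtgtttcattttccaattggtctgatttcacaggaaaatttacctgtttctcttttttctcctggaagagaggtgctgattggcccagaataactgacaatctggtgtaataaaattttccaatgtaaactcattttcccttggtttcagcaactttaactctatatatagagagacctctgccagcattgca
Il9, chr13:56482258-56482507, minus strand: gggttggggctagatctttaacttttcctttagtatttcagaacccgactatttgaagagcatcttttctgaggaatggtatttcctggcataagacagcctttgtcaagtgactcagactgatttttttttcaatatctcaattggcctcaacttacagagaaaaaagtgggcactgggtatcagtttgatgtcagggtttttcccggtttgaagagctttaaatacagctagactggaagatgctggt
Il1rl1, chr1:40429320-40429569, plus strand: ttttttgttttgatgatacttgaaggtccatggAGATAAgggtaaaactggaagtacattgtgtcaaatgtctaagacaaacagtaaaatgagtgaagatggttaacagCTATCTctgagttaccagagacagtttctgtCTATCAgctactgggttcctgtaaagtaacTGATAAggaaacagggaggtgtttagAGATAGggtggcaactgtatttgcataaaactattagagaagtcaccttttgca
A RefSeq window was matched for 6 of the 7 genes, with 8 windows in all since Il4 and Il1rl1 each had windows for 2 annotated starts. The Gata3 window (chr2:9878601-9878850) and both Il1rl1 windows lie inside the bounds of their genes. The bases before the outer bound of these 2 genes were therefore not searched. The Il13 window held 1 match, 75 bases before the start, and the Il5 window held 1, 66 bases before the start. The printed Il1rl1 window held 5 matches, and the printed Il4 and Il9 windows and the Gata3 window held none. At the second start of Il4 the window (chr11:53617339-53617588) held 1 match, 74 bases before the start, and the other Il1rl1 window (chr1:40439379-40439628) held 1, 97 bases before the start. In all, 5 of the 8 windows held a match. Of 32851 such windows in the table, 26.5% held at least 1 match and 6.4% at least 2. A match is a run of letters and not a measured binding site, and the gene counts do not tell the 2 starts of Il4 or of Il1rl1 apart.

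Gata3 (gene ID 14462, chromosome 2, 9857078 to 9887953) did not differ by the test, and the KO mice stood on either side of the WT mice. Its level was 14.1 CPM (reads scaled to library size, with TMM factors) in KO 1 and 61.0 in KO 2, against 19.6 in WT 1 and 19.9 in WT 2. KO 2 thus stood 4.32 times as high as KO 1, and the WT libraries were 1.01 times apart. The fit put the log2 fold change at 0.93 (SE 0.63, 95% interval -0.64 to 2.49, adjusted p = 0.365). Without KO 1 it was 1.63 (adjusted p = 1.19e-06) and without KO 2 it was -0.49 (adjusted p = 0.0133), while over 10 alternatives the adjusted p lay between 1.19e-06 and 0.929. These levels came from 292 reads in KO 1 and 1227 in KO 2, against 382 in WT 1 and 380 in WT 2. The annotated lncRNA genes 4930412O13Rik and 9230102O04Rik overlap Gata3 and were not used here, and whether the counting kept strand is not given.

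Il13 (gene ID 16163, chromosome 11, 53631323 to 53634702) was the gene of the 7 that rose. It had 8.66 CPM in KO 1 and 13.3 CPM in KO 2, against 4.0 in WT 1 and 4.18 in WT 2, from 179 and 268 reads in KO, against 78 and 80 in WT. Both KO libraries lay above both WT libraries, and the KO mean was 2.69 times the WT mean. In the fit the log2 fold change came to 1.42 (SE 0.28, 95% interval 0.72 to 2.13, adjusted p = 0.0331). Leaving out WT 1 gave an adjusted p of 0.123 and leaving out WT 2 one of 0.112, and over 10 alternatives it lay between 6.28e-05 and 0.123, with Il13 passing in 8 of them.

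Il5 (gene ID 16191, chromosome 11, 53720794 to 53725103) lay higher in both KO libraries but did not pass. It had 54 reads in KO 1 and 40 in KO 2, against 17 in WT 1 and 11 in WT 2, or 2.61 and 1.99 CPM against 0.872 and 0.575. The genotypes did not overlap, with a KO mean 3.18 times the WT mean. In the fit the log2 fold change came to 1.66 (SE 0.41, 95% interval 0.64 to 2.68, adjusted p = 0.0551). With libraries scaled by size alone it passed (adjusted p = 0.0463). Without KO 1 it also passed (adjusted p = 0.0355), and without KO 2 (0.0046), within a range of 0.0046 to 0.460 over 10 alternatives.

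Il4 (gene ID 16189, chromosome 11, 53612460 to 53618665), the cytokine that starts the Th2 programme, was close to the lower limit of the test in every library. It had 12 reads in KO 1 and 30 in KO 2, against 17 in WT 1 and 10 in WT 2. The exact 95% Poisson interval was 6.20 to 21.0 reads for KO 1 and 20.2 to 42.8 for KO 2, against 9.90 to 27.2 for WT 1 and 4.80 to 18.4 for WT 2, which covers counting error only. The KO 1 interval overlapped both WT intervals. Of the WT intervals, the KO 2 interval overlapped that of WT 1 alone, and it also overlapped the KO 1 interval narrowly (20.2 to 21.0 reads). The fit put the log2 fold change at 0.56 (SE 0.60, 95% interval -0.94 to 2.07, adjusted p = 0.566, and 0.129 to 0.966 over 10 alternatives), and it was -0.27 without KO 2.

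Within the trio of Il4, Il5 and Il13, the summed level per gene length was 20.2 TPM (the authors' values, scaled for gene length and library size) in KO 1 and 28.6 in KO 2, against 10.2 in WT 1 and 8.64 in WT 2. Il13 made up 72.5% and 73.8% of that sum in KO 1 and KO 2, against 61.2% and 72.8% in WT 1 and WT 2. All 4 cultures kept the Th17 cytokine far above this trio. Il17a stood at 1124 TPM in KO 1 and 387 in KO 2, against 760.2 in WT 1 and 648 in WT 2, or 55.5 and 13.5 times the trio's sum in the KO libraries, against 74.8 and 75.0 times in the WT libraries. The lowest of these ratios was that of KO 2, which had the lowest Il17a and the highest trio sum. Il4 and Il13, both highest in KO 2, are part of that sum, so the ratio is not separate from their levels.

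Il9 (gene ID 16198, chromosome 13, 56479277 to 56482257) was high in 1 mouse only. It had 36.4 CPM in KO 1 and 0.944 CPM in KO 2, against 1.13 in WT 1 and 0.523 in WT 2, from 752 and 19 reads in KO, against 22 and 10 in WT. KO 2 lay between the WT libraries, and KO 1 was 38.5 times as high as KO 2. In the fit the log2 fold change came to 4.49 (SE 1.61, 95% interval 0.46 to 8.51, adjusted p = 0.127). Without KO 1 it was 0.19 (adjusted p = 0.833) and without KO 2 it was 5.44 (adjusted p = 1.13e-08), the adjusted p lying between 1.13e-08 and 0.881 over 10 alternatives, so the fitted value rests on KO 1. KO 1 was the KO library with the lower Gata3.

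Il24 (gene ID 93672, chromosome 1, 130882074 to 130887411) fell, and it was the most abundant of the 7 genes in WT cells. It had 48.3 CPM in KO 1 and 19.6 CPM in KO 2, against 182 in WT 1 and 199 in WT 2, or 33.9 ± 20.3 CPM in KO and 190.3 ± 12.2 in WT (SD, n = 2 each). Both KO libraries lay below both WT libraries, with 997 and 394 reads in KO 1 and KO 2 against 3544 and 3805 in WT 1 and WT 2. In the fit the log2 fold change came to -2.49 (SE 0.41, 95% interval -3.51 to -1.46, adjusted p = 0.0214). It was -3.28 without KO 1 (adjusted p = 4.28e-08) and -1.98 without KO 2 (adjusted p = 3.89e-08). Il24 did not pass without WT 1 (adjusted p = 0.207) or without WT 2 (0.266), the range over 10 alternatives being 6.79e-11 to 0.266. By TPM, Il24 ranked 2038th of all genes in KO 1 and 4478th in KO 2, against 432nd in WT 1 and 386th in WT 2.

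Il1rl1 (gene ID 17082, chromosome 1, 40404864 to 40465418) lay higher in both KO libraries and did not pass. It had 4.5 CPM in KO 1 and 3.28 CPM in KO 2, against 1.38 in WT 1 and 2.35 in WT 2. The genotypes did not overlap, with a KO mean 2.08 times the WT mean, and the WT libraries were 1.70 times apart. In the fit the log2 fold change came to 1.06 (SE 0.39, 95% interval 0.08 to 2.03, adjusted p = 0.135, and 0.0096 to 0.653 over 10 alternatives). It passed without KO 2 (1.26, adjusted p = 0.0096). Its expected counts were not whole numbers (92.6 and 66.48 in KO, against 27.25 and 44.73 in WT), and the counts do not separate the membrane-bound receptor from the soluble decoy form made by the same gene.

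**Figure D2:**
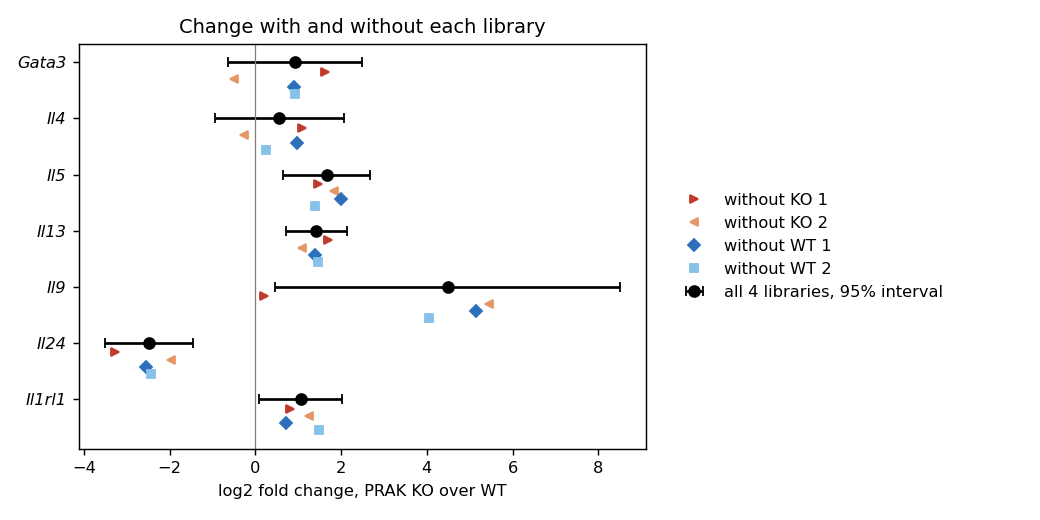
Log2 fold change of each Th2 gene, PRAK KO over WT, with all 4 libraries (black, bar for the 95% interval) and with each library left out (coloured marks). Il24 stays below 0 and Il5, Il13 and Il1rl1 stay above 0 in all 5 fits, whereas Gata3 and Il4 cross 0 and Il9 moves between 0.19 and 5.44 with the KO library kept.

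By level per gene length the order of the genes differed between the genotypes. In KO cells it was Il9 (74.0 ± 99.7 TPM), Il24 (61.1 ± 38.9), Gata3 (22.2 ± 18.9), Il13 (17.9 ± 4.55), Il4 (3.57 ± 2.07), Il5 (2.96 ± 0.707) and Il1rl1 (1.5 ± 0.438). The first 4 of these overlapped their neighbours from mouse to mouse, as did Il4 and Il5. In WT cells it was Il24 (315 ± 13 TPM), Gata3 (11.1 ± 0.148), Il13 (6.25 ± 0.0495), Il9 (2.98 ± 1.61), Il4 (2.27 ± 0.856), Il5 (0.870 ± 0.269) and Il1rl1 (0.650 ± 0.226), where Il9 overlapped Il4 and Il5 overlapped Il1rl1 (SD, n = 2 each). The sum of the 7 genes was 264 TPM in KO 1 and 102 in KO 2, against 332 in WT 1 and 347 in WT 2. Il24 made up 33.6% and 32.8% of it in KO 1 and KO 2, against 92.2% and 93.6% in WT 1 and WT 2. In KO 1, Il9 made up 54.7% of the sum, and in KO 2, Gata3 made up 34.7%, so the rest of the sum had a different make-up in the 2 KO mice.

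**Figure D3:**
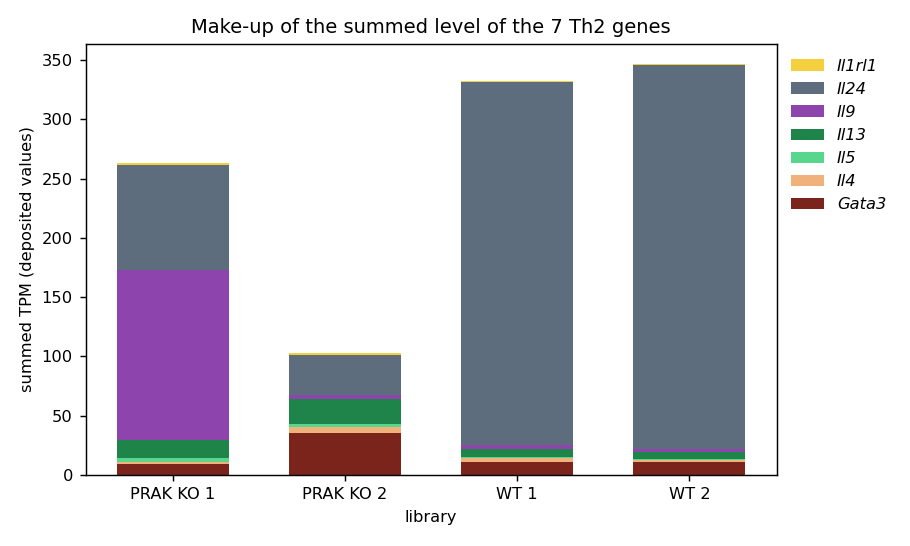
Summed level of the 7 Th2 genes in each library, in the authors' TPM, with each gene as a layer of the bar. Il24 fills 92.2% and 93.6% of the WT bars, while the KO 1 bar is 54.7% Il9 and the KO 2 bar is 34.7% Gata3.

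For each of the 7 genes the 2 KO mice differed by more than the median gene did, with the widest gaps in Il9, Gata3 and Il24. On log2(CPM + 0.5), KO 2 minus KO 1 was 2.07 for Gata3, -4.68 for Il9, -1.28 for Il24, 0.88 for Il4, 0.59 for Il13, -0.40 for Il1rl1 and -0.32 for Il5. WT 2 minus WT 1 lay between -0.67 (Il9) and 0.60 (Il1rl1) for the same genes. For Il5 (-0.35) and Il1rl1 (0.60) the gap was wider between the WT mice than between the KO mice. Over the 12680 genes tested the median absolute difference was 0.26 between the KO libraries and 0.11 between the WT libraries, and 4.87% of genes differed by more than 1 between the KO libraries, against 0.757% between the WT libraries. Only 1 gene tested, the predicted gene Gm37416, differed more between the KO mice than Il9, and it was named after its value was seen. There were 57 such genes for Gata3, or 0.450% of those tested, and 307 for Il24, or 2.42%. The share of genes with a wider gap was 6.96% for Il4, 16.6% for Il13, 31.4% for Il1rl1 and 41.2% for Il5.

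**Figure D4:**
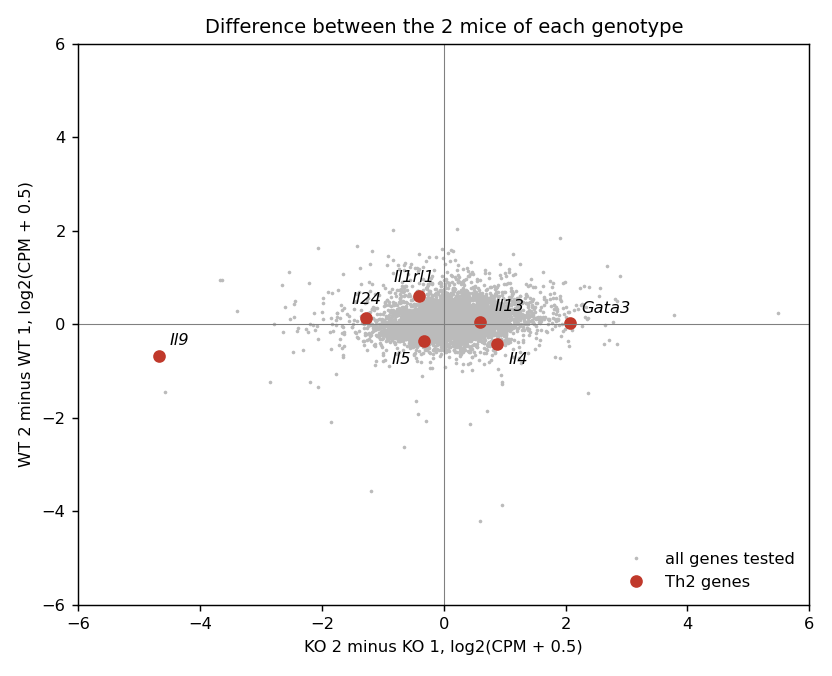
Difference between the 2 mice of each genotype on log2(CPM + 0.5), with KO 2 minus KO 1 across and WT 2 minus WT 1 upwards, for all genes tested (grey) and the 7 Th2 genes (red). Il9 at -4.68 and Gata3 at 2.07 lie far to opposite sides along the KO axis and within 0.67 of 0 along the WT axis.

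The libraries themselves held 20027775 and 19418012 expected counts in KO 1 and KO 2, against 20125124 and 19853344 in WT 1 and WT 2. Mapkapk5, which checks the labels, stood at 20.04 and 21.6 CPM in KO 1 and KO 2, against 35.6 and 38.4 in WT 1 and WT 2 (log2 fold change -0.83, adjusted p = 0.0194, not called without WT 1 at 0.0918 or WT 2 at 0.169, with a range of 7.59e-05 to 0.169 over 10 alternatives). The deleted exons are not named in the labels, so these reads do not measure how much working transcript was left. Of all genes tested, 652 were higher and 1043 lower in KO, and 918 were higher and 864 lower when libraries were scaled by size alone. Under that scaling the median over the whole table moved by 0.10 on the log2 scale, to 0.12. All 6 T cell markers and all 8 Th17 markers stood at 1 CPM or more in every library. Summed T cell markers came to 1907 and 2649 CPM in KO 1 and KO 2, against 2480 and 2562 in WT 1 and WT 2, and summed Th17 markers to 3280 and 1337, against 3488 and 3146. None of the T cell markers passed, and of the Th17 markers Ccr6 rose (log2 fold change 1.12, adjusted p = 0.00963) and Il23r fell (-1.77, adjusted p = 0.0390).

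Cells other than T cells can make these cytokines or carry these receptors, and in bulk RNA fewer cells of a type and less RNA per cell cannot be told apart. Mcpt8 and Prss34, proteases of basophils, which make Il4 and Il13, were highest in KO 2. Mcpt8 had 0.436 CPM in KO 1 and 3.23 CPM in KO 2, against 0 in WT 1 and 0.157 in WT 2, and Prss34 stood at 0 and 4.87, against 0 and 0.105. Of 13 basophil and mast cell markers measured, 8 reached 1 CPM in KO 2, against 3 in each other library, and none was at 0 in all libraries. Their summed level, mostly Kit and Il3ra, was 53.0 CPM in KO 1 and 85 in KO 2, against 96.6 in WT 1 and 108 in WT 2. Of 6 tested 0 rose and 1 (Il3ra) fell, where 5.14% of all genes tested rose and 8.23% fell. KO 2 is also the library with the most Gata3, Il4 and Il13, and the part of these markers in that was not tested. In KO 1, where Il9 was high, the mast cell protease gene Cma1 had 5 reads, against 0 in each other library. Mcpt4, another mast cell protease gene, had 1 read in KO 1 and 1 in KO 2, against 0 in both WT libraries. Other markers of the list were not highest in KO 1. Kit was lowest there (20.1 CPM, against 38 in KO 2, 50.9 in WT 1 and 58.1 in WT 2). Cpa3, Gata2 and Hdc had 9, 15 and 18 reads in KO 1, against 36, 51 and 48 in KO 2. Tpsb2 had 0 reads in KO 1 and 5 in KO 2. The part of these markers in the Il9 level was not tested.

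Summed marker levels of other cell types also differed between the genotypes. Over all genes tested, 5.14% rose and 8.23% fell, so 1 gene called of 5 tested does not set a list apart. Of 10 myeloid markers 6 rose and 0 fell (summed level 128 and 278 CPM in KO 1 and KO 2, against 64.9 and 90.02 in WT 1 and WT 2), including Lyz2, Itgam and Csf1r. Adgre1, also among the 6, had 1 and 2 reads in WT 1 and WT 2 and was tested through its KO libraries alone. CD8 T and NK cell markers summed to 369.8 and 313 CPM in KO 1 and KO 2. In WT 1 and WT 2 they summed to 61.8 and 158 CPM, and 1 of 5 tested (Nkg7) rose. Cd8a gave 185 and 104 CPM, against 11.8 and 49.1, and Cd8b1 gave 97.6 and 77.1, against 19.1 and 45.3. Neither passed. Eomes lay higher in both KO libraries and did not pass, and Gzma overlapped between the genotypes. The NK cell genes Klrb1c and Ncr1 had at most 0.29 CPM in a library. B cell markers summed to 103 and 86.9 CPM, against 26.3 and 69.5, with 1 of 5 (Ms4a1) rising. Markers of group 2 innate lymphoid cells, which make Il5, Il13 and Il9, summed to 156 and 135 CPM, against 224 and 198. Id2 gave 148 and 126 CPM of this, against 219 and 192. The other markers did not share 1 direction, and 1 of 5 tested (Areg) rose. Arg1 stood at 2.66 and 3.63 CPM, against 1.28 and 2.4, and Klrg1 at 0.484 and 0.646, against 0.205 and 0.105. Hpgds stood at 1.89 and 1.94 CPM, against 2.46 and 2.4, and Il17rb and Zbtb16 overlapped between the genotypes. Eosinophil markers summed to 2.61 and 2.58 CPM, against 4.46 and 4.03. Ccr3 gave 2.13 and 0.795 CPM of this, against 4.15 and 3.5. The other markers, all with few reads, did not share that direction. Prg2 stood at 0.145 and 0.298 CPM, against 0.0513 and 0.0523, and Siglecf at 0.29 and 0.596, against 0.205 and 0.314. Epx stood at 0 and 0.646 CPM, against 0.0513 and 0.157. Ear1, Ear2 and Ear6 had reads in KO libraries alone. The part of these cells in the levels of the 7 genes was not tested.

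Genes that act on or with the Th2 programme moved in both directions. Of 39 such genes in 4 role groups, 35 were tested, 4 rose, 7 fell and 24 did not pass. Their median log2 fold change was -0.03. The share of all genes that passed was 13.4%, with 5.14% rising and 8.23% falling. With the DESeq2 Wald test 18 of the pathway genes passed, where that test called 2296 genes over the whole table, against 1695 with edgeR. Leaving out a library moved the number that passed, as it did over the whole table.

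Among upstream signals and receptors, 0 of 6 tested rose and 1 fell, where 5.14% of all genes tested rose and 8.23% fell. Stat5b, which carries interleukin 2 signals, fell to 278 ± 31.7 CPM in KO cells, against 482 ± 12.5 in WT (log2 fold change -0.79, adjusted p = 0.0250). Il4ra, the receptor chain for interleukins 4 and 13, stood at 581 and 457 CPM in KO 1 and KO 2, against 862 and 805 in WT 1 and WT 2 (-0.68, adjusted p = 0.0561). Stat6 stood at 239 and 256 CPM, against 349 and 342 (-0.48, adjusted p = 0.0559). Neither passed. The genotypes did not overlap in either, which held for 63.0% of all genes tested. With the DESeq2 Wald test, which called 2296 genes against 1695 with edgeR, both passed (adjusted p = 0.00115 for Il4ra and 0.00715 for Stat6). Il4ra also passed with no filter on low counts (0.0496). Stat5b had an adjusted p of 0.171 when WT 1 was left out and 0.147 when WT 2 was. Without KO 1 it was 0.000144 for Il4ra and 0.00606 for Stat6, and without KO 2 it was 0.00191 and 0.000903. Over 10 alternatives it ranged from 1.28e-05 to 0.171 for Stat5b, from 0.000144 to 0.369 for Il4ra and from 0.000903 to 0.476 for Stat6.

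Among transcription factors that favour Th2 or interleukin 9 expression, 1 of 14 rose and 2 fell. Of all genes tested, 5.14% rose and 8.23% fell. The median log2 fold change of the 14 was -0.01. Among those that did not pass, Spi1 (1.87), Pparg (1.31), Bhlhe41 (1.15), Tcf7 (0.63), Gfi1 (0.41) and Batf (0.05) had values above 0. Ikzf1 (-0.26), Rbpj (-0.19), Junb (-0.08), Irf4 and Maf had values below 0. Nfil3, a basic leucine zipper factor that acts on Th2 cytokine genes, fell to 51.2 ± 5.59 CPM in KO cells, against 182 ± 3.26 in WT (-1.83, adjusted p = 0.00279), as did Ets1, which stood at 572 ± 50.7 CPM in KO and 1008 ± 55.3 in WT (-0.82, adjusted p = 0.0267). Notch1, a receptor that can act on Gata3 and Il4, rose to 376 ± 29.3 CPM in KO cells, against 250 ± 14.6 in WT (0.59, adjusted p = 0.0432). Irf4 (-0.49, adjusted p = 0.0863) and Maf (-0.37, adjusted p = 0.377) did not pass, and Maf moved to -0.80 without KO 1 (adjusted p = 0.000283). Irf4 passed without KO 1 (adjusted p = 0.00346), without KO 2 (0.00589) and with DESeq2 (0.00439). Without WT 1 the adjusted p was 0.248 for Ets1 and 0.307 for Notch1, and without WT 2 it was 0.182 and 0.505. Over 10 alternatives it ranged from 2.17e-06 to 0.248 for Ets1, from 0.000198 to 0.505 for Notch1, from 0.00346 to 0.627 for Irf4 and from 0.000283 to 0.780 for Maf, and Nfil3 passed in all 10.

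Among factors that oppose GATA3 or the Th2 fate, 2 of 8 rose and 1 fell, against 5.14% and 8.23% of all genes tested. Tbx21, the gene of the Th1 factor T-bet, rose (1.28, adjusted p = 0.0292), and Foxp3, the factor of regulatory T cells, rose (1.16, adjusted p = 0.0215). Runx3, a partner of T-bet that silences Il4, fell to 260.2 ± 32.4 CPM in KO cells, against 489.6 ± 22.9 in WT (-0.91, adjusted p = 0.0195). Tbx21 had an adjusted p of 0.0584 in the fit lacking WT 1, and Runx3 had 0.0723 in that fit and 0.116 in the fit lacking WT 2. Over 10 alternatives it ranged from 5.29e-07 to 0.116 for Runx3 and from 9.42e-07 to 0.0584 for Tbx21, and Foxp3 passed in all 10.

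Among surface and effector genes, 1 of 7 tested rose and 3 fell, where 5.14% of all genes tested rose and 8.23% fell. Ccr4, a chemokine receptor gene typical of Th2 cells, fell (-1.20, adjusted p = 0.0112). Cysltr1, the receptor gene for cysteinyl leukotrienes, fell to 45.1 ± 18.5 CPM in KO cells, against 154 ± 7.09 in WT (-1.77, adjusted p = 0.0195). Ecm1, which helps Th2 cells leave lymph nodes in mice, fell to 199 ± 75.1 CPM, against 451 ± 23.6 (-1.18, adjusted p = 0.0450). Areg, an epidermal growth factor family ligand made by Th2 and innate lymphoid cells, rose to 0.920 and 1.84 CPM in KO 1 and KO 2, against 0.256 and 0.157 in WT 1 and WT 2 (2.70, adjusted p = 0.0444). Its reads numbered 19 and 37 in KO, against 5 and 3 in WT. Both WT libraries lay under the low-count filter's level of 0.501 CPM, so Areg was tested through its KO libraries alone. Without WT 1 and without WT 2 the adjusted p was 0.152 and 0.278 for Areg and 0.0536 and 0.0747 for Ecm1. Areg also did not pass with DESeq2 (adjusted p = 0.0510) or limma-voom (0.0560), and Ecm1 did not with libraries scaled by size alone (0.0538). Over 10 alternatives it ranged from 0.00233 to 0.278 for Areg and from 2.60e-07 to 0.0747 for Ecm1, and Ccr4 and Cysltr1 passed in all 10. Ptgdr2, a Th2 surface receptor gene, had 0.0968 CPM in KO 1 and 0 in KO 2, against 0 in both WT libraries.

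**Figure D5:**
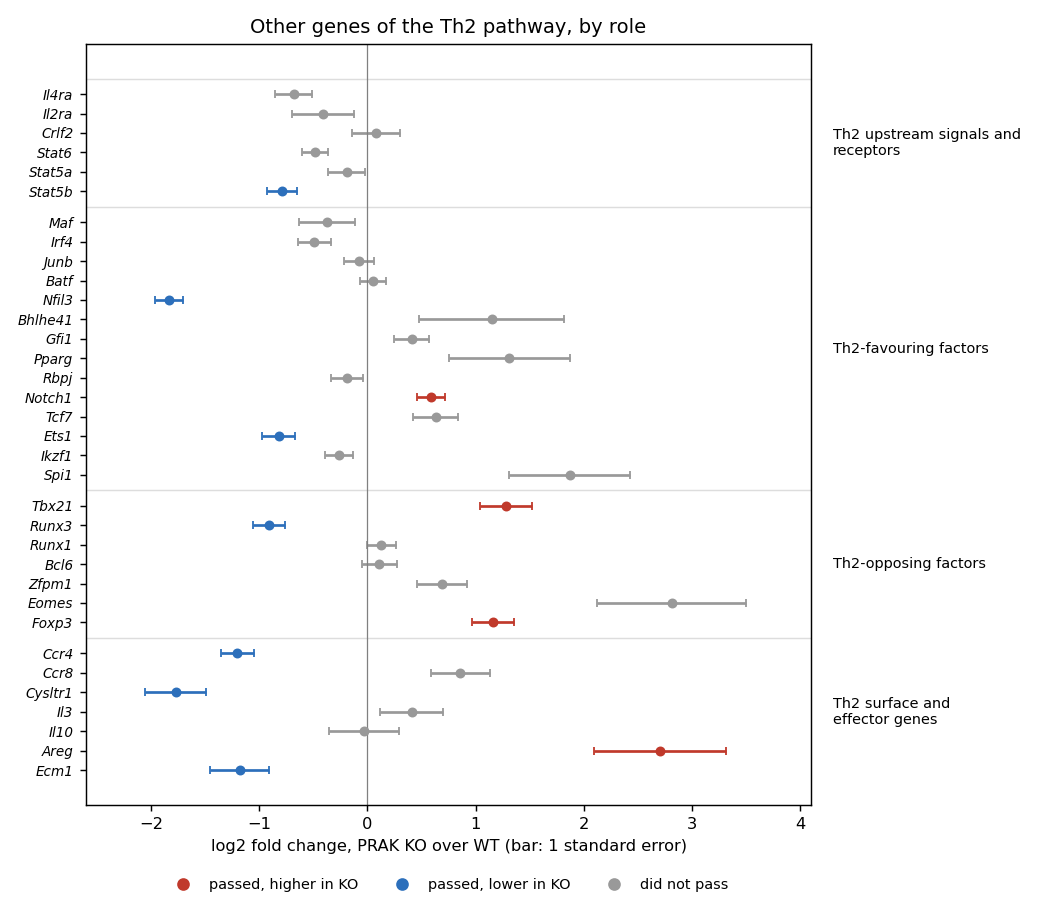
Log2 fold change, PRAK KO over WT, of tested genes of the Th2 pathway in 4 role groups, with a bar of 1 standard error. Red points passed as higher in KO (4 genes), blue points passed as lower (7 genes) and grey points did not pass, and both directions occur among factors that favour and factors that oppose the Th2 fate.

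Of 8 tested receptor chains for the cytokines and for interleukin 33, 2 rose and 1 fell, where 5.14% of all genes tested rose and 8.23% fell. Il20rb, the chain shared by receptors for interleukins 20 and 24, rose to 3.68 and 1.94 CPM in KO 1 and KO 2, against 0.410 and 0.314 in WT 1 and WT 2 (2.93, adjusted p = 0.0244). Its reads numbered 76 and 39 in KO, against 8 and 6 in WT. Both WT libraries lay under the low-count filter's level of 0.501 CPM, so Il20rb was tested through its KO libraries alone. Csf2rb, the beta chain shared by receptors for interleukins 3 and 5 and GM-CSF and also carried by myeloid cells, rose to 18.5 and 27.3 CPM, against 1.54 and 3.50 (3.18, adjusted p = 0.0123). Il13ra1, a chain of the interleukin 13 receptor, fell to 1.02 and 0.696 CPM, against 3.28 and 5.02 (-2.27, adjusted p = 0.0259). The partner chain of ST2, Il1rap, did not pass (0.37, adjusted p = 0.306). Il20rb had an adjusted p of 0.0513 when WT 1 was left out and 0.0784 when WT 2 was, and Il13ra1 had 0.159 in the fit lacking WT 2. Over 10 alternatives it ranged from 6.90e-05 to 0.0784 for Il20rb and from 0.00103 to 0.159 for Il13ra1, and Csf2rb passed in all 10.

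Genes beside the 7 were also examined. Of 24 neighbours, 19 were tested, 2 rose, 1 fell and 16 did not pass, a share close to the 13.4% called over all genes tested. On chromosome 11, Rad50 (14.8 kb from Il13) stood at 81.7 and 73.7 CPM in KO 1 and KO 2, against 77.6 and 76.2 in WT 1 and WT 2 (log2 fold change 0.02, adjusted p = 0.944), and its sign turned without KO 1 (-0.06) and without WT 2 (-0.0033), with an adjusted p of 0.497 to 0.998 over 10 alternatives. Kif3a, on the Il4 side of the cluster, had a log2 fold change of -0.07. Farther out, Septin8 (81.7 kb from Il13) rose to 25.2 and 37.1 CPM in KO 1 and KO 2, against 17 and 14 in WT 1 and WT 2 (1.01, adjusted p = 0.0477), and Csf2 (613 kb from Il13), the GM-CSF gene, rose by 1.86 (adjusted p = 0.00693). Il3, next to Csf2, did not pass (0.41, adjusted p = 0.378).

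On chromosome 1, Il24 lies in a cluster with Il10, Il19 and Il20. Il10 stood at 47.0 and 24.2 CPM in KO 1 and KO 2, against 39.5 and 33.1 in WT 1 and WT 2 (-0.03, adjusted p = 0.959), Il19 had at most 0.157 CPM and Il20 at most 0.103 CPM in a library. Fcmr, 1.28 kb from Il24, stood at 4.36 and 8.0 CPM in KO, against 12 and 16.1 in WT (-1.19, adjusted p = 0.0778). Beside Il1rl1, 0 of 5 interleukin 1 and 18 receptor genes passed, where 13.4% of all genes tested did. Among the 5 was Il18r1, 0.134 kb away (0.62, adjusted p = 0.0671). On chromosome 2, Sfmbt2 (482 kb from Gata3) fell to 6.20 and 8.75 CPM in KO, against 15.3 and 16.9 in WT (-1.11, adjusted p = 0.0363). Taf3, which is nearer (26.6 kb from Gata3), did not pass (0.50, adjusted p = 0.0647). Leaving out WT 1 gave an adjusted p of 0.110 for Sfmbt2 and 0.0610 for Septin8, and leaving out WT 2 gave 0.200 and 0.184. Septin8 also did not pass with limma-voom (0.0578). Over 10 alternatives it ranged from 4.40e-05 to 0.200 for Sfmbt2 and from 5.44e-05 to 0.184 for Septin8, and Csf2 passed in all 10.

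The 5 named genes whose levels followed Gata3 most closely were Perp, Atg9b, Mcam, Nr4a3 and Itm2a. Likeness was the root mean square distance between log2(CPM + 1) values, centred on each gene's mean, over the 4 libraries and among 9818 genes whose mean reached 5 CPM or more. It was 0.101 for Perp, a p53 family target gene that stood at 7.79 and 41.8 CPM in KO 1 and KO 2, against 11 and 12 in WT 1 and WT 2. It was 0.158 for Atg9b, an autophagy gene, and 0.206 for Mcam, which encodes the adhesion molecule CD146. It was 0.211 for Nr4a3, a nuclear receptor gene induced by T cell receptor signals that stood at 121 and 347 CPM in KO 1 and KO 2, against 164 and 144 in WT 1 and WT 2, and 0.213 for Itm2a. None of the 5 passed the test between genotypes (adjusted p from 0.346 to 0.621), and with 4 libraries the likeness rests mostly on the gap between KO 1 and KO 2.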

How the data were processed

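The deposited table gives, for each gene and library, an expected count, an FPKM and a TPM, all 3 made by the authors, per the file headers. Expected counts are estimates with no normalisation, while FPKM and TPM carry the authors' own scaling for length and depth. Tools listed without role or order by the submitters' processing notes were RSEM 1.2.12, HISAT2 2.0.4 and Bowtie2 2.2.5, with the build GRCm38.p6. Strand, kit and annotation release are not stated there. FPKM was not used for any result.

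Expected counts were rounded to whole numbers, filtered with filterByExpr (minimum count 10, minimum total 15), which kept 12680 of 17921 genes, and scaled by TMM. All 7 genes exceeded the filter's level of 0.501 CPM in all 4 libraries. KO was compared with WT in edgeR 4.0.16 (R 4.3.3) by the robust quasi-likelihood test with genotype as the single term, adjusted over all genes tested by the Benjamini-Hochberg method. The standard error was the absolute log2 fold change over the square root of F, and 95% intervals used the residual 2 degrees of freedom plus the prior. All adjusted p-values are from this test unless another is named, and an alternative changes 1 choice in it. The steps were tested on simulated data.

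Total expected counts per library lay between 19418012 and 20125124. Libraries are single mice, so p-values measure the spread between mice and their cultures. The labels do not say that equal mouse numbers mark a shared litter, day or culture. Members, lists and the rule for named genes were chosen with earlier results of these data known. The rule names the 7 genes, Mapkapk5, every listed gene that passed, 8 fixed genes whatever their result and the 5 genes most like Gata3; other genes were named after their values were seen. The values of 1 gene under this rule are not reported here. Alternatives were DESeq2 1.42.0 (its size factors and its Wald test), limma-voom (limma 3.58.1), scaling by library size, no filter, mouse number as a term, leaving out each library, and deposited TPM with a pseudocount of 1 or 0.1. RefSeq supplied positions and upstream sequences; Il13ra2, Tpsab1 and Mrgprb2 were listed but not analysed here.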

Additional observations from a re-analysis of the deposited data

How the results depend on the processing

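The signs of Il5, Il13, Il9, Il24 and Il1rl1 held under every alternative run, while Gata3 reversed to -0.49 and Il4 to -0.27 without KO 2, and Rad50 to -0.06 without KO 1 and -0.0033 without WT 2 (0.08 at the highest, without KO 2); the cause was not tested. Leaving out each library in turn gave 693 to 5999 genes called over the whole table, 4 to 26 of the Th2 pathway and 0 to 6 of the 7 genes. The log2 fold changes then spanned -0.49 to 1.63 for Gata3, -0.27 to 1.09 for Il4, 1.39 to 1.99 for Il5, 1.08 to 1.70 for Il13, 0.19 to 5.44 for Il9, -3.28 to -1.98 for Il24 and 0.72 to 1.48 for Il1rl1. DESeq2 called 18 genes of the Th2 pathway, against 11 with edgeR, and 2296 genes over the whole table, against 1695. Scaling by library size alone put Il5 past the threshold (1.76). On log2(TPM + 1), where the pseudocount shrinks low levels, the change was 1.08 for Il5 and 0.60 for Il1rl1. With the replicate block (mouse number as a term, 1 residual degree of freedom), 2935 genes were called, 17 of them in the Th2 pathway; Il5 (1.67, adjusted p = 0.0201), Il4ra (0.0117) and Stat6 (0.0293) passed and Il24 did not (-2.61, adjusted p = 0.120). It changed no other call of a gene whose alternatives were computed. Mice share only a number: the deviations of equal-numbered mice correlated at 0.175 across genes. Read numbers limit Il4, with 10 to 30 reads per library, and Il5, with 11 to 54.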
